A study of Mus musculus with 4 samples.

Results

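The astrocyte genes described here are 34 genes that mark astrocytes or their reactive state, chosen by name. They comprise 5 reactive genes (Gfap, Vim, Serpina3n, Cd44 and Osmr) and 29 genes of resting, homeostatic astrocytes, among 18193 genes that the array reads under a single symbol. All 34 were found, on 76 probe sets, and of each gene's probe sets the one brightest on average over the 4 arrays is used below. The samples were prefrontal cortex of mice kept under repeated social threat (environment labelled HighThreat, 2 pools) and of control mice (labelled LowThreat, 2 pools), each pool holding total RNA of 5 mice. The sources used here name no strain, sex, age, length of exposure or time of dissection, and no genotype, transgene or drug is named in the labels. Because each array averages 5 mice, the spread between pools is not that between animals. Nothing says that the pools came from separate cages or days, so p-values measure only spread between these pools, which may in part be technical. The test used, limma's, draws the spread of each gene toward that typical of all probe sets. Its SE, intervals and p-values thus do not rest on the pools of that gene alone.

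Astrocytes take up the glutamate and potassium that neurons release, return glutamine to them, store glycogen, control water at their endfeet on blood vessels and secrete proteins that act on synapses. On injury or inflammation they become reactive: they enlarge, build more intermediate filament from Gfap and vimentin, and raise receptors and secreted proteins such as Osmr, Cd44 and Serpina3n. Cytokines of the interleukin 6 family, acting through gp130, Jak kinases and Stat3, are a classical signal for this state, while Notch, bone morphogenetic protein and fibroblast growth factor signals shape astrocyte identity. In cortex, astrocytes of grey matter hold little Gfap, and those of white matter, of the brain surface and along large vessels hold more.

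Most astrocyte genes lay slightly lower in the threat pools than in the control pools, and the filament genes Gfap and Vim lay lowest among them. Of the 29 homeostatic genes, 24 had a lower mean in threat, with a median log2 difference (threat minus control) of -0.12 and quartiles of -0.20 and -0.02. In 13 of the 29 both threat pools lay below both control pools (called separate pools below), and in 1, Sox9, both lay above. Of all 18193 genes, 18.8% were separate in the lower and 26.2% in the higher direction, and their median difference was 0.02. With a difference of at least 1.2-fold asked for as well, 5 of the 34 members were separate and lower and 1 was higher, where 6.8% and 5.18% of all genes were. Without that fold limit, 13.9% of the 10030 genes at least as bright as the dimmest homeostatic gene were separate and lower. Another 35.8% of them were separate and higher, and their median difference was 0.07. Of the 5 reactive genes 4 had a lower mean in threat and 1 a higher one, with a median of -0.40, and the pools of Gfap (lower) and Cd44 (higher) were separate.

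With p adjusted over all 45037 probe sets, none of the 34 genes passed 0.05 in limma's test, and neither did any other gene or probe set (0% called). The smallest adjusted p among the members was 0.423 (Gfap and Fgfr3). At an unadjusted p under 0.05 there were 4 genes, Gfap, Fgfr3, Timp4 and F3, all lower in threat, while 5.76% of all genes were lower and 4.9% higher at that level. A mean taken over tissue cannot tell fewer astrocytes from less RNA per astrocyte.

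**Figure D1:**
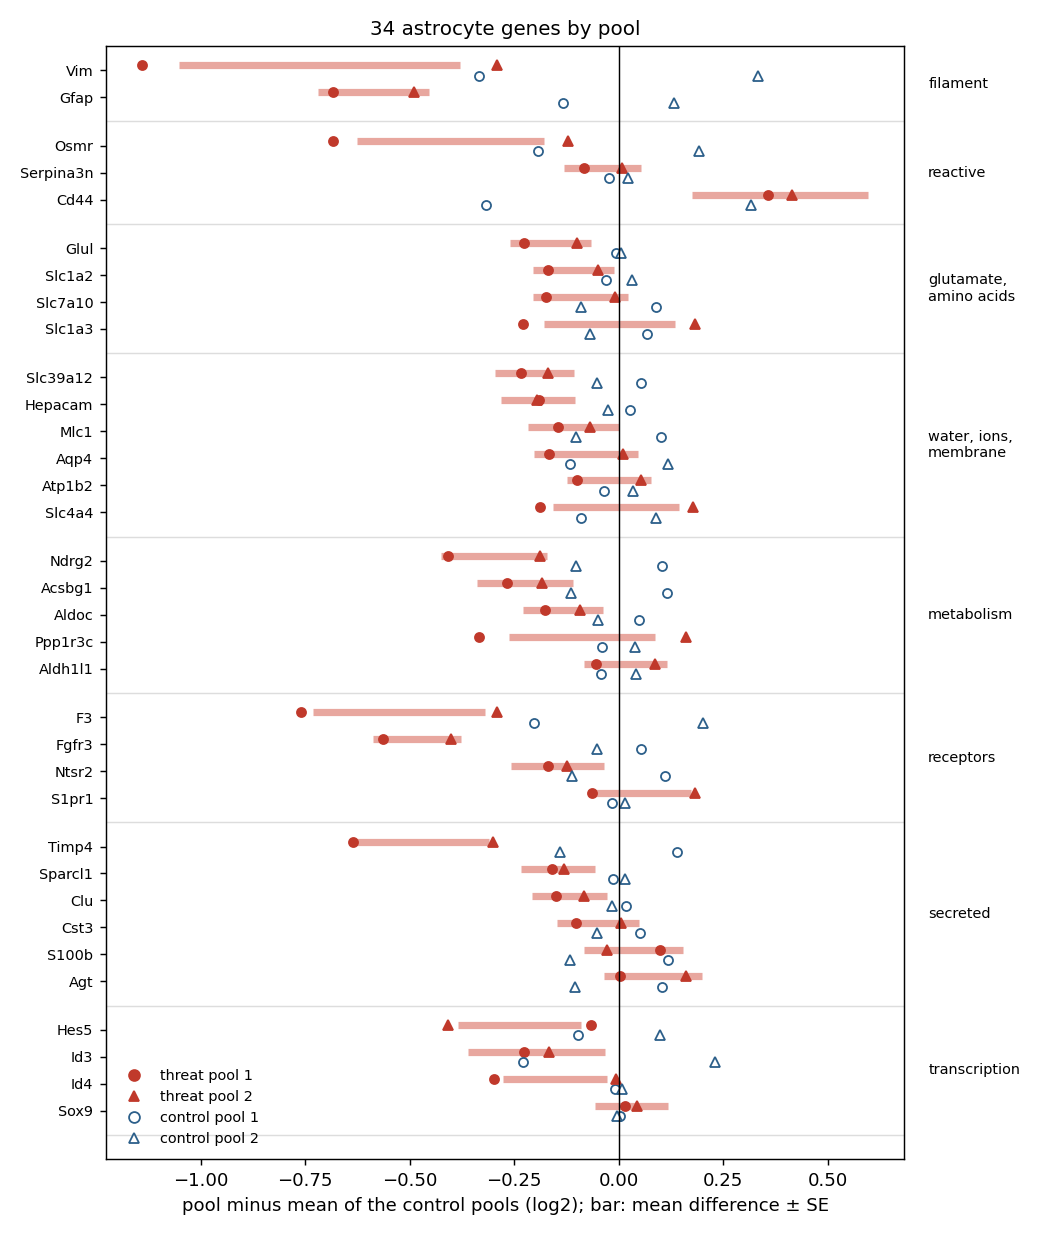
Every member by pool, as the log2 value of the pool minus the mean of the control pools of that gene; filled red marks are threat pools, open blue marks control pools, circles pool 1 and triangles pool 2, and the pale bar is the mean difference ± SE. By the mean difference Vim and Gfap lie farthest to the left and Cd44 farthest to the right, and threat pool 1 is the lowest pool for 23 of the 29 homeostatic genes.

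Gfap, the intermediate filament protein by which astrocytes are usually stained, was lower on every probe set that reads it. Its brightest probe set measured 8.74 and 8.93 in the threat pools and 9.29 and 9.55 in the control pools (log2), a difference of -0.59 ± 0.13 (SE), or 1.50-fold lower in threat (limma, unadjusted p = 0.00533, adjusted p = 0.423). The next, whose name ends in _s_at for sequence shared between transcripts, measured 8.11 and 8.29 in threat and 8.68 and 9.01 in control, a difference of -0.64 ± 0.14. The dimmest, of the same kind, measured 7.47 and 7.84 in threat and 8.24 and 8.48 in control, a difference of -0.70 ± 0.16. On all 3 the threat pools lay below the control pools, with the same adjusted p of 0.423. These probe sets read the same transcript pools, so they are repeats of 1 measurement and not independent evidence. Leaving out 1 pool at a time kept the difference of Gfap between -0.72 and -0.45.

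Vim, vimentin, the filament protein that joins Gfap in reactive astrocytes and is also made by endothelial, mural and meningeal cells, had the largest mean difference of the 34 and a wide spread. It measured 8.48 and 9.33 in the threat pools and 9.29 and 9.95 in the control pools, a difference of -0.71 ± 0.34. The groups overlapped, since threat pool 2 lay just above control pool 1. The other 2 probe sets of Vim had separate pools, with differences of -0.90 ± 0.31 and -1.06 ± 0.31 (limma, unadjusted p = 0.029 and 0.015, adjusted p = 0.452 and 0.433). The difference on the main probe set was -0.29 without threat pool 1 and -0.38 without control pool 2, against -1.14 without threat pool 2 and -1.05 without control pool 1. Both pools numbered 2 were thus high in Vim within their groups, as were the medians of the endothelial and of the mural and meningeal markers described further on.

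The 250 bases before the annotated start of Gfap, Vim and Cd44 are shown because these genes had the lowest and the highest differences of the list; capitals mark matches, on either strand, to TGGGAA, the core that the Notch partner Rbpj prefers. They are RefSeq sequence of GRCm38.p6, Gfap at chr11:102897201-102897450 on the minus strand, Vim at chr2:13574061-13574310 on the plus strand and Cd44 at chr2:102901666-102901915 on the minus strand, each 5′ to 3′ along the gene.
Gfap: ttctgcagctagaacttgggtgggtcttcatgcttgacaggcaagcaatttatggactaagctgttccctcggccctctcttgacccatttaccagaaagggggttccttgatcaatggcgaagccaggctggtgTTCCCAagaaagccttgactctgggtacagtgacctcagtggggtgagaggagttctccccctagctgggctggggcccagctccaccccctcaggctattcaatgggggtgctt
Vim: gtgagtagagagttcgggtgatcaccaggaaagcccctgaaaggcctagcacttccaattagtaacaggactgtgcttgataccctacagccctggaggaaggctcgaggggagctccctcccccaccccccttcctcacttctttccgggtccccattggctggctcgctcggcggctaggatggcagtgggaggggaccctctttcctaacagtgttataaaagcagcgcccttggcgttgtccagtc
Cd44: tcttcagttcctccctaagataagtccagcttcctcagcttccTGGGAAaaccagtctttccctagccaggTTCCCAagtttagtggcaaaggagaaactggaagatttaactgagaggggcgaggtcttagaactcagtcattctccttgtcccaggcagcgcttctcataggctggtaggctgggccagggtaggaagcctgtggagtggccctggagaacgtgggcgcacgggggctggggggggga
Gfap held 1 match, Cd44 held a pair and Vim held none. Over the 33 promoters found for 28 of the 34 genes, 42.4% held TGGGAA, against 21.6% of 32851 mouse promoters of the same length. Some genes thus enter with more than 1 promoter, and the shares here were not tested. The Stat-type motif TTCNNNGAA was in 15.2% of the members' promoters and 7.02% of all, the members being Acsbg1, Agt, Aldoc, Ntsr2 and Slc1a3. The AP-1 motif TGANTCA was in 3.03% of the members' promoters and 6.75% of all, with F3, tissue factor, the single gene. Matches to TTCNNNGAA and TGGGAA can share letters. They did so in 1 of the members' 33 promoters, that of Ntsr2, and in 361 of the 32851 mouse promoters. A match describes letters, not a site that is bound.

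The other 3 reactive genes gave mixed values, with a higher mean for Cd44, a lower one for Osmr and next to no difference for Serpina3n. Cd44, the hyaluronan receptor of reactive and surface-contacting astrocytes and of many immune cells, measured 7.27 and 7.33 in the threat pools and 6.60 and 7.23 in the control pools, a difference of 0.39 ± 0.21 (1.31-fold higher in threat; limma, adjusted p = 0.534). The pools were separate by a narrow gap, since control pool 2 lay just under threat pool 1. The difference was 0.07 without control pool 1 and 0.70 without control pool 2. Its second bright probe set gave 0.18 ± 0.26 with overlapping pools. A dimmer one gave 0.39 ± 0.20, also overlapping, and the last lay in the range of the Bacillus controls, which match no mouse transcript and reached 4.25. The pools of Cd44 were not separate after cyclic loess normalisation or on the mean of its probe sets.

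Serpina3n, a secreted protease inhibitor that is among the most strongly raised transcripts of reactive astrocytes, measured 7.23 and 7.32 in threat and 7.29 and 7.33 in control. Its difference of -0.04 had a 95% interval from -0.27 to 0.19. Osmr, the receptor subunit for oncostatin M, measured 4.90 and 5.46 in threat and 5.39 and 5.78 in control, a difference of -0.40 ± 0.22 with overlapping groups. Osmr was the single member whose mean lay under 5.56, the median over the array. Its difference was -0.12 without threat pool 1.

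**Figure D2:**
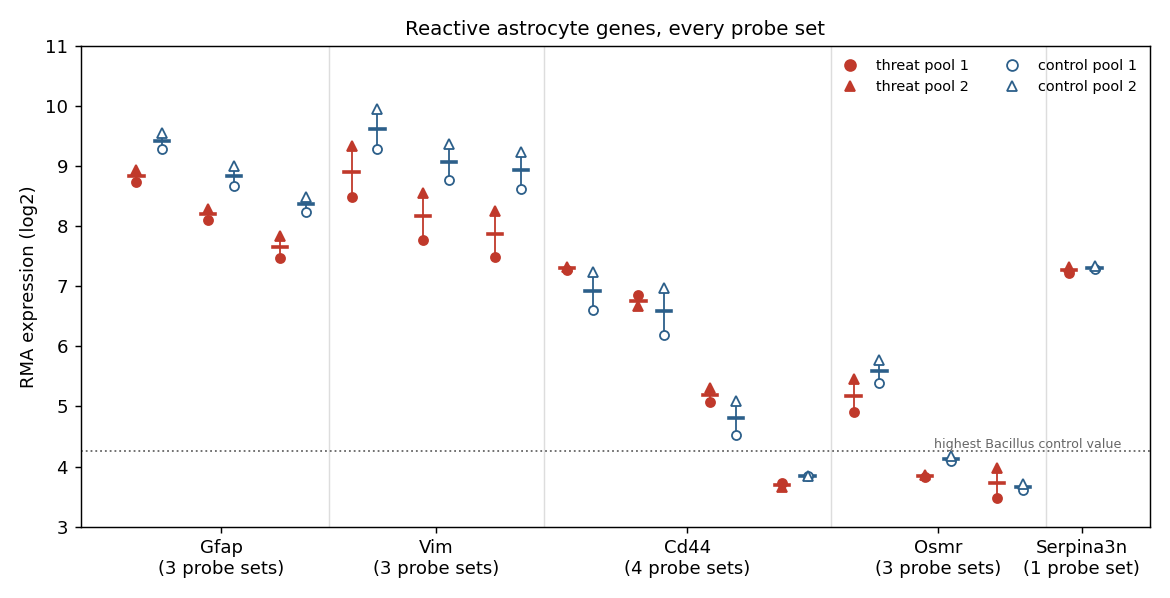
Values of every probe set of the 5 reactive genes (log2, y axis) in each pool, threat left and control right of each pair, with a short bar at the mean of 2 pools; the dotted line is the highest Bacillus control value, 4.25. Threat pools lie below control pools on all 3 probe sets of Gfap, Cd44 runs the other way on its brightest probe set, and the pools of Serpina3n overlap.

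Genes of glutamate uptake and recycling differed little by their main probe sets. Slc1a2, the glutamate transporter GLT-1 that clears most synaptic glutamate, measured 12.70 and 12.82 in threat and 12.84 and 12.90 in control, a difference of -0.11 ± 0.10. Glul, glutamine synthetase, measured 12.67 and 12.80 in threat and 12.89 and 12.90 in control, a difference of -0.16 ± 0.10. Both had separate pools on these probe sets, and neither neared the test (adjusted p = 0.689 and 0.555 in limma). The second probe set of Glul overlapped, at 10.87 and 11.41 in threat and 11.25 and 11.27 in control (-0.12 ± 0.18). Slc1a3, the transporter GLAST, measured 10.75 and 11.16 in threat and 11.04 and 10.91 in control, a difference of -0.02 ± 0.16, with the threat pools on either side of the control pools. Slc7a10, a transporter of serine and other small neutral amino acids, overlapped as well (-0.09 ± 0.11).

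Several of these genes gave another answer on another probe set. Of the 5 other probe sets of Slc1a3, the 3 bright ones had separate pools, with differences of -0.31 ± 0.10, -0.42 ± 0.16 and -0.24 ± 0.09 (limma, unadjusted p = 0.021, 0.041 and 0.040). For Slc1a2, 1 dimmer probe set measured 8.72 and 8.73 in threat and 9.21 and 9.42 in control, a difference of -0.59 ± 0.11 (limma, unadjusted p = 0.002, adjusted p = 0.413), while its other bright probe sets gave 0.11 and -0.08. Which transcript ends these probe sets read was not examined.

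Transporters and membrane proteins of the endfeet overlapped between groups for the most part. Aqp4, the water channel of astrocyte endfeet, measured 10.49 and 10.67 in threat and 10.54 and 10.78 in control, a difference of -0.08 with a 95% interval from -0.39 to 0.23. Slc4a4, a sodium bicarbonate cotransporter (-0.01 ± 0.15), Atp1b2, the beta subunit of the astrocyte sodium pump (-0.02 ± 0.10), and Mlc1, a membrane protein of astrocyte junctions (-0.11 ± 0.11), overlapped too. After median centring Slc4a4, Atp1b2 and the transporter Slc1a3 lay above 0. Hepacam, the adhesion protein that holds Mlc1 at those junctions, measured 8.95 and 8.94 in threat and 9.17 and 9.12 in control, a difference of -0.19 ± 0.09. The zinc transporter Slc39a12 measured 9.26 and 9.32 in threat and 9.55 and 9.44 in control, a difference of -0.20 ± 0.10. The pools of Hepacam and Slc39a12 were separate on these probe sets, with adjusted p of 0.498 and 0.503 in limma's test. On the second bright probe set of each the pools overlapped, at -0.08 ± 0.12 for Hepacam and -0.02 ± 0.10 for Slc39a12.

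Among metabolic genes, 3 of 5 had separate pools, each lower in threat. Ndrg2, a cytoplasmic protein abundant in mature astrocytes, measured 11.75 and 11.97 in threat and 12.26 and 12.06 in control, a difference of -0.30 ± 0.13 (1.23-fold lower). Acsbg1, which activates fatty acids, measured 8.93 and 9.01 in threat and 9.31 and 9.08 in control (-0.22 ± 0.11). Aldoc, the brain aldolase of glycolysis, measured 12.83 and 12.92 in threat and 13.06 and 12.96 in control (-0.13 ± 0.10), and its dimmer probe set gave -0.46 ± 0.12. Aldh1l1, a folate enzyme and the widely used label of all astrocytes, measured 9.16 and 9.30 in threat and 9.17 and 9.25 in control, a difference of 0.02 with a 95% interval from -0.23 to 0.27. Ppp1r3c, which directs a phosphatase to glycogen, measured 10.32 and 10.81 in threat around 10.61 and 10.69 in control (-0.09 ± 0.17).

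Receptors and other surface proteins held a pair of the larger differences. Fgfr3, a fibroblast growth factor receptor of astrocytes, measured 8.86 and 9.02 in threat and 9.47 and 9.37 in control, a difference of -0.48 ± 0.11, or 1.40-fold lower (limma, unadjusted p = 0.00459, adjusted p = 0.423). Its second bright probe set gave 0.07 ± 0.14, with overlapping pools, so the lower value rests on 1 probe set. F3, tissue factor, the membrane starter of clotting that astrocytes carry, measured 8.21 and 8.68 in threat and 8.77 and 9.17 in control, a difference of -0.53 ± 0.21 (1.44-fold lower; limma, unadjusted p = 0.0466, adjusted p = 0.468). Threat pool 2 of F3 was under control pool 1 by less than the gap inside either group, and the difference was -0.29 without threat pool 1 and -0.32 without control pool 2. Ntsr2, the low-affinity neurotensin receptor, was separate by a narrow gap (-0.15 ± 0.11), and S1pr1, a sphingosine phosphate receptor shared with endothelium, overlapped (0.06 ± 0.11).

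Of the secreted proteins, Timp4, an inhibitor of matrix metalloproteinases, differed most. It measured 8.03 and 8.37 in threat and 8.81 and 8.53 in control, a difference of -0.47 ± 0.16 (1.38-fold lower; limma, unadjusted p = 0.0278, adjusted p = 0.45), and its second probe set, with separate pools too, gave -0.28 ± 0.15. Without threat pool 1 the difference was -0.30, and without control pool 1 it was -0.33. Sparcl1, hevin, which promotes synapse formation, measured 13.03 and 13.06 in threat and 13.17 and 13.20 in control (-0.14 ± 0.09). Clu, clusterin, a secreted chaperone, gave -0.12 ± 0.09, and its 4 probe sets ran from -0.26 to -0.08. Cst3, cystatin C, also made by microglia, gave -0.05 ± 0.10 and Agt, angiotensinogen, 0.08 ± 0.12, both with overlapping pools. S100b, a calcium-binding protein that oligodendrocytes make too, was at 0.03 ± 0.12 on its brighter probe set and at -0.36 ± 0.12 on the other, which measured 9.43 and 9.49 in threat and 9.95 and 9.67 in control.

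By their brightest probe sets, no transcriptional regulator among the members was lower with separate pools. Sox9, which specifies astrocytes and marks their nuclei in the adult, measured 8.06 and 8.09 in threat and 8.04 and 8.04 in control, a difference of 0.03 with a 95% interval from -0.19 to 0.25; the pools were separate, while its second bright probe set lay at -0.06. After cyclic loess the difference of Sox9 was below 0, as were those of Aldh1l1 and S100b. Id4 and Id3, inhibitors of differentiation that respond to bone morphogenetic proteins, gave -0.15 ± 0.12 and -0.20 ± 0.16. The dimmest of the 3 probe sets of Id4 had separate pools, at 9.96 and 10.23 in threat and 10.37 and 10.40 in control (-0.29 ± 0.12). Hes5, a Notch target, measured 8.41 and 8.07 in threat and 8.38 and 8.58 in control (-0.24 ± 0.15), so that threat pool 2 was the low one, unlike in most members. The second probe set of Hes5 was separate, at 7.15 and 7.01 in threat and 7.21 and 7.20 in control (-0.13 ± 0.10).

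Where a gene had several probe sets, the choice among them moved the value more than the pools did in some cases. Of the 76 probe sets 65 were bright (mean over 5.56), and 20 genes had several bright ones. In 13 of the 20 all bright probe sets lay below 0, in 6 the signs were mixed, and in 1 (Cd44) all lay above 0. The spread within a gene was over 0.3 in 7 genes, the widest being Slc1a2 (-0.59 to 0.11), Fgfr3 (-0.48 to 0.07) and Slc4a4 (-0.28 to 0.25). In 13 of the 20 the mean of the other bright probe sets was lower than the value of the brightest. Over all 76 probe sets, 32 were separate in the lower direction and 3 in the higher, where 19.4% and 23.9% of all 45037 probe sets were.

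**Figure D3:**
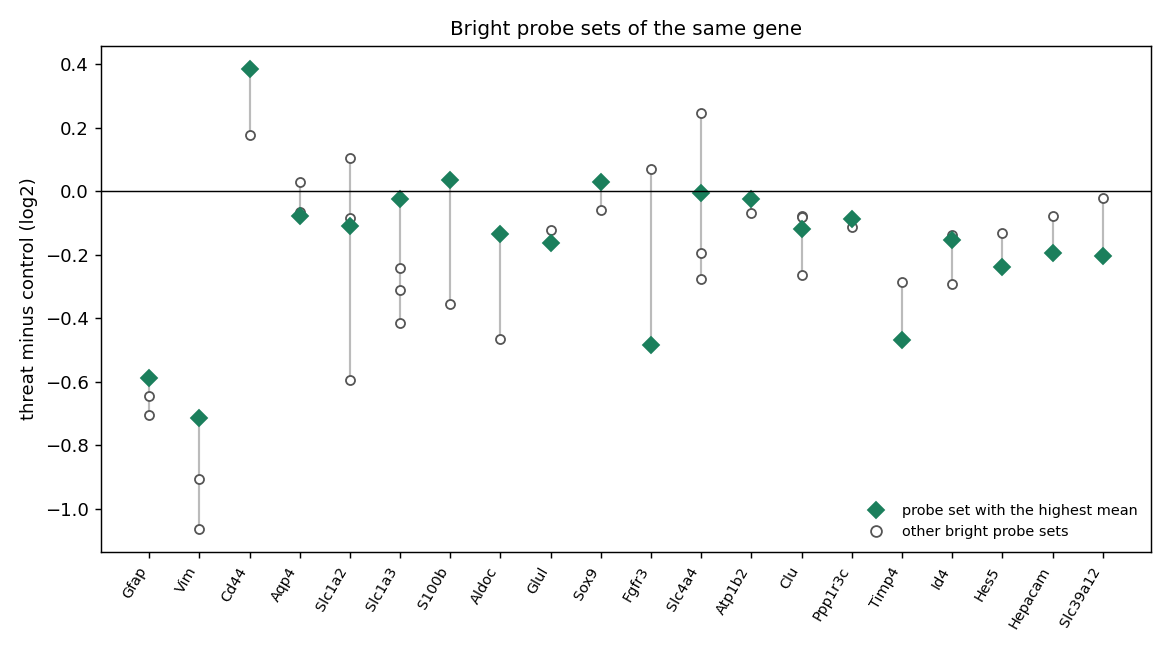
Log2 difference, threat minus control, of each bright probe set of the 20 members that have several; diamonds are the probe sets with the highest mean, open circles the others. Gfap and Vim lie below 0 throughout, whereas Slc1a3, S100b and Aldoc lie lower on the other probe sets than on the brightest.

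The homeostatic difference was larger in 1 threat pool than in the other. Relative to the mean of the control pools, the median of the 29 homeostatic genes was -0.17 in threat pool 1 and -0.07 in threat pool 2, while the control pools themselves lay at 0.02 and -0.02. Threat pool 1 was below both control pools for 24 of the 29 genes, as for 29.5% of all genes, and threat pool 2 for 14, as for 32.5% of all genes. Against these, 8 and 1 of the 29 lay above both control pools when threat pool 1 or threat pool 2 was left out, where 36.7% and 42.9% of all genes did. Against control pool 2 alone, both threat pools were lower for 17 of the 29 genes and higher for 3 (30.2% and 44.3% of all genes). Against control pool 1 alone, both were lower for 17 and higher for 2 (34.8% and 38.4% of all genes). Threat pool 2 exceeded threat pool 1 for 26 of the 29. The values without threat pool 1 therefore rest on the pool nearer to control: 8 members changed sign, among them Slc1a3, Aqp4, Slc4a4, Atp1b2 and Ppp1r3c, and none of those 8 had separate pools. Threat pool 1 was the lower threat pool for the reactive genes too, with medians of -0.68 in threat pool 1 and -0.12 in threat pool 2. The control pools lay at -0.19 and 0.19, so that threat pool 2 was above control pool 1.

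Other astrocyte genes that are not among the 34 gave a like picture. Of 47 measured under a single symbol, 39 lay below 0, with a median of -0.12, and 20 were separate in the lower and 2 in the higher direction. These are 42.6% and 4.3% of the list, against 18.8% and 26.2% of all 18193 genes, of which 8061 lay below 0. Like the lists that follow, this list was chosen with earlier results of these data known. Fabp7, the fatty acid binding protein of astrocytes and their precursors, measured 11.05 and 11.40 in threat and 11.64 and 11.86 in control (-0.53 ± 0.15). Sox2, the progenitor and astrocyte transcription factor, measured 9.60 and 9.92 in threat and 10.31 and 10.20 in control (-0.49 ± 0.13). Slc6a11, the GABA transporter GAT-3, was at 0.37 ± 0.30, with 7.76 in control pool 2 and 8.60 or more in the other pools, and the connexin Gjb6 at -0.36 ± 0.26, both with overlapping pools. None of the 47 passed the test (smallest adjusted p = 0.433 in limma).

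Genes known from other settings of astrocyte reactivity lay lower in threat for the most part. Of 15 measured genes of general reactivity beyond the 5 members, 12 lay below 0, 5 with separate pools and none above with separate pools, with a median of -0.18. The largest difference was that of Lcn2, lipocalin 2, at 4.22 and 4.40 in threat and 6.78 and 6.15 in control, so close to the Bacillus controls in threat that no size is given for its difference. Cp, ceruloplasmin (-0.74 ± 0.45), and the small heat shock protein Hspb1 (-0.48 ± 0.37) overlapped, and the galectin Lgals3 was at -0.46 ± 0.14. Of 9 genes of the neuroinflammatory type all lay below 0, with a median of -0.34. The 5 with separate pools were Fbln5 (-0.88 ± 0.37), H2-D1 (-0.39 ± 0.18), Psmb8 (-0.34 ± 0.16), Amigo2 (-0.16 ± 0.09) and Fkbp5. Fkbp5 was separate by a narrow gap, with next to no difference (-0.03 ± 0.09). Srgn (-0.45 ± 0.24) and Serping1 (-0.40 ± 0.71) overlapped. Of 12 genes of the ischaemic type 9 lay below 0, with a median of -0.18, 4 with separate pools lower and 2 higher. Emp1 (-1.02 ± 0.38), Cd14 (-0.37 ± 0.09) and B3gnt5 (0.43 ± 0.19) were separate, and Tm4sf1 (-0.64 ± 0.30) overlapped. Emp1, at 4.45 in threat pool 1, and Lgals3, at 4.63 and 4.49 in the threat pools, also lay near the Bacillus controls, which limits their sizes. Separate pools with threat lower held for 33.3% of the general, 55.6% of the neuroinflammatory and 33.3% of the ischaemic genes, against 18.8% of all genes. Separate pools with threat higher held for 0%, 0% and 16.7% of them, against 26.2% of all genes. Many of these genes are also made by vessel, meningeal or immune cells.

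Signalling genes upstream of these states had medians near 0. Of 14 genes of the interleukin 6 family pathway 10 lay below 0, with a median of -0.06, and 1 had separate pools lower and 2 higher. These are 7.1% and 14.3% of the list, against 18.8% and 26.2% of all genes. Jak1, the kinase bound to gp130, measured 10.64 and 10.68 in threat and 10.31 and 10.50 in control (0.26 ± 0.10), the receptor Lifr was at -0.21 ± 0.20, Cntfr at -0.20 ± 0.20 and Il6ra at 0.16 ± 0.11, while Stat3 itself was at -0.01. Of 24 genes of the Notch, bone morphogenetic protein and fibroblast growth factor pathways 15 lay below 0, with a median of -0.04. Separate pools were found lower for 7 and higher for 1 (29.2% and 4.2%, against 18.8% and 26.2% of all genes). The Notch ligand Jag1 was at -0.68 ± 0.26, the receptor Fgfr2 at -0.37 ± 0.11, Hey2 at -0.30 ± 0.21 and Bmp4 at -0.21 ± 0.43. Fgfr2, which measured 7.86 and 8.09 in threat and 8.38 and 8.31 in control, thus lay lower beside Fgfr3 (limma, unadjusted p = 0.020, adjusted p = 0.439). Of 11 further genes of glutamate and glutamine handling, most of them neuronal or shared, 5 lay below 0 and 6 above, with a median of 0.04, led by Slc38a5 (-0.67 ± 0.20), Slc1a6 (0.31 ± 0.18), Slc1a5 (-0.18 ± 0.13) and the neuronal transporter Slc1a1 (0.16 ± 0.09). Of these 11, 18.2% had separate pools lower and 36.4% higher, against 18.8% and 26.2% of all genes. Among the genes at least as bright as the dimmest homeostatic gene, 13.9% were lower and 35.8% higher, the latter near the share of this list.

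Every list of markers of other cells had a median below 0 as well, from -0.92 for oligodendrocytes to -0.03 for neurons, whose sums overlapped between groups. Their part in the astrocyte differences was not tested. Of all genes, 18.8% were separate in the lower and 26.2% in the higher direction. All 13 measured oligodendrocyte markers had separate pools with threat lower and a median of -0.92, and their summed linear signal was 12535 and 15101 in the threat pools and 27833 and 21738 in the control pools. Of 14 mural and meningeal markers 12 lay below 0, 5 with separate pools, and the sum was 5188 and 8288 in threat and 7080 and 12968 in control, the pools numbered 2 being the high ones in each group. Of 11 endothelial markers 10 lay below 0, 6 with separate pools, and the sum was 1218 and 1490 in threat and 1515 and 1910 in control. For 10 choroid and ependymal markers, 8 below 0 and 6 separate, it was 463 and 467 in threat and 1143 and 545 in control. For 11 microglial markers, 9 below 0 and 4 separate, it was 8761 and 9773 in threat and 10708 and 9844 in control. The 29 homeostatic astrocyte genes summed to 70457 and 76955 in threat and 81058 and 79406 in control. Of 13 neuronal markers 9 lay below 0, 6 with separate pools lower and 2 higher, with a median of -0.03, and their sum was 55207 and 55621 in threat, between the 53885 and 58838 of the control pools. Of these cell markers, Kcne2 (choroid and ependymal) exceeded the Bacillus controls in no pool, and every other one did in 1 pool or more. Among the reactivity and signalling genes above, Tgm1 (ischaemic type), Il6 and Fgf2 exceeded them in no pool either, and they are included in the counts of their lists.

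**Figure D4:**
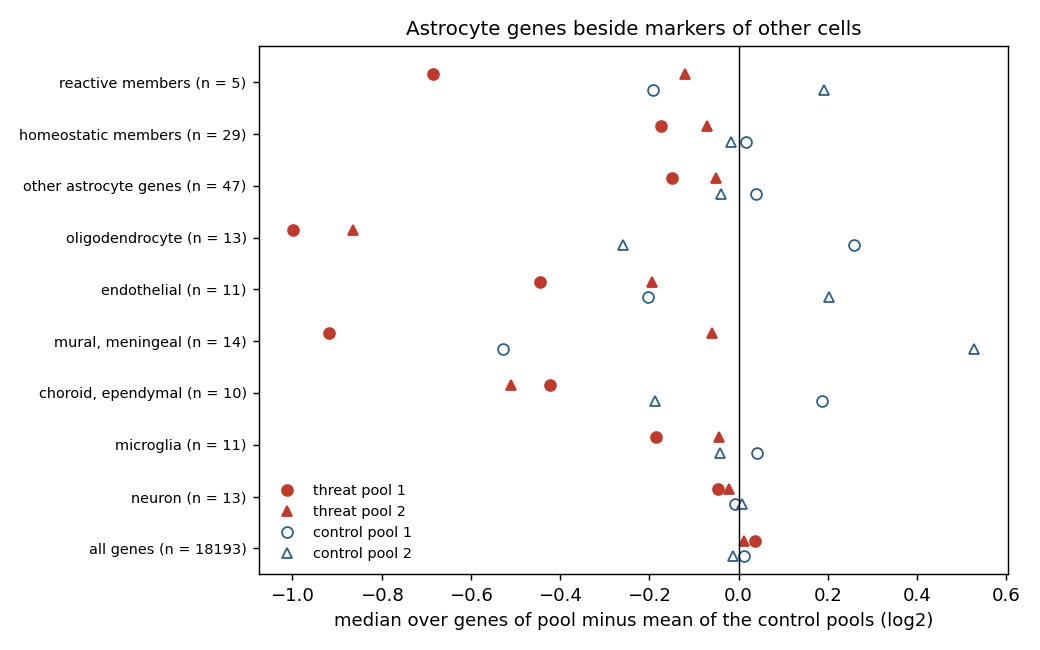
Median over the genes of each list of the log2 value in a pool minus the mean of the control pools; filled red marks are threat pools, open blue marks control pools, circles pool 1 and triangles pool 2, and n is the number of genes. Homeostatic and other astrocyte genes shift by less than 0.2, and oligodendrocyte markers lie at -0.998 and -0.865 in the threat pools. The reactive, endothelial and mural lists share the order of the 4 pools by these medians. In the endothelial list threat pool 2 (-0.195) and control pool 1 (-0.203) nearly tie.

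The arrays as a whole were alike, with correlations between 0.9942 and 0.9961 across probe sets, array medians between 5.53 and 5.58 and a median standard error of 0.108 for a log2 difference. Excitatory neuron genes such as Slc17a7 and Camk2a were bright in every pool. Shifts of the homeostatic genes by 0.1 to 0.2 are of the order of that standard error for any single gene, and the number of arrays, 2 a group, limits the precision.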

How the data were processed

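The values, deposited by the authors on a log2 scale for each probe set of 4 Affymetrix MOE430 2.0 arrays, were made with RMA per the submitters' processing notes. No source used here gives its version or settings. RMA as usually run forces the arrays to share 1 distribution and so hides a shift common to most genes. Total RNA was extracted with a Qiagen kit and biotin-labelled, per the labels' protocols. Scanner files were not used here.

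Of 45101 probe sets 64 controls were left out. Symbols came from the platform annotation, and 34945 probe sets with 1 symbol covered 18193 genes. The 4 arrays were compared with limma 3.58.1 in R 4.3.3 (lmFit, eBayes, 2-sided, Benjamini-Hochberg over 45037 probe sets, 2 residual degrees of freedom), checked on simulated data. An exact permutation test of 2 against 2 pools cannot go below p = 0.333 and was not used. Pools were called separate when both of 1 group lay beyond both of the other. Lists are described by counts and medians, without a test. Named genes were the reactive members, homeostatic members with separate pools or an unadjusted p under 0.05, and up to 4 genes of each other list by size of difference; the other members are given beside their roles. The summed linear signal adds 2 to the power of the log2 value over a list. The members and lists were chosen with earlier results of these data known, and the promoter motifs after the values were seen. Alternatives were cyclic loess, median centring, an intensity trend, bright probe sets alone, pool number as a block, other probe set choices and leaving out each pool.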

Additional observations from a re-analysis of the deposited data

How the results depend on the processing

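With p adjusted over the array, limma called no member at 0.05 under any normalisation, filter, probe set choice or block tried, or without any 1 pool; at an unadjusted p under 0.05 there were 4, all lower. In that main setting 5.76% of all genes were lower at that level. The count was 7 after cyclic loess (with Acsbg1, Hepacam and Slc39a12), where 6.72% of all genes were lower. It was 7 with an intensity trend (with Glul, Ndrg2 and Sparcl1), where 5.82% were. Under the other settings that kept all 4 pools it was from 3 to 5, where 4.22% to 7.37% of the genes in those fits were lower. Gfap stayed below 0 throughout, with -0.719 when control pool 1 was left out and -0.454 when control pool 2 was. The count of 14 members with separate pools and threat lower was 5 when a difference of at least 1.2-fold was also asked for (6.8% of all genes). It was 12 after median centring (14.7% of all genes) and 18 after cyclic loess (21.8%). With probe sets averaged per gene it was 17 (18.7%), and with bright ones averaged 18 of 33 (15% of the genes in that fit). It was between 15 and 28 when 1 pool was left out, which is easier to meet with 3 pools. The count of 2 with threat higher was 0 after cyclic loess, with probe sets averaged per gene and with bright probe sets averaged per gene (a setting added after the data were seen), 1 with the 1.2-fold limit, and between 2 and 9 with 1 pool left out. The median of the homeostatic genes ran from -0.173 without threat pool 2 to -0.07 without threat pool 1, and that of the reactive genes from -0.684 to -0.121 for the same pools. Pool number is shared between the groups only as a number. With it as a replicate block the unadjusted p of Gfap was 0.00241 and the adjusted p 0.368; no member passed the adjusted test, while at an unadjusted p under 0.05 Vim (p = 0.00195) and Osmr (0.0132) were added and Timp4 (0.0645) was lost; the deviations of same-numbered pools from their group means correlated at 0.33 over probe sets, and 2 pairs are too few to show a pairing. The cause of these changes was not tested. Signal near the Bacillus controls limits Osmr and the dim probe sets of Cd44, and outside the members genes such as Lcn2, Emp1 and Lgals3.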
